A study of Mus with 6 samples.

Results

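The nuclear genes of mitochondrial complex I carry the gene symbol prefix Nduf. The 46 protein-coding genes with that prefix were taken from a table of 54532 genes by symbol and biotype alone. No measured value entered this rule, though earlier results of these data were known. They comprise 10 genes of the NADH-binding module, 6 of the quinone-binding module, 9 of the proximal and 11 of the distal membrane arm, and 8 assembly factors. Ndufa4, a subunit now placed in cytochrome c oxidase, and its paralogue Ndufa4l2 make up the remaining 2. All 46 averaged 0.5 FPKM or more across the libraries and entered the test. FPKM are fragments scaled by gene length and by a factor for each library, so levels can be compared between genes per unit length.

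Complex I is the entry point for electrons from NADH into the respiratory chain of mitochondria. Its matrix arm oxidises NADH at a flavin, passes the electrons along iron-sulphur clusters and hands them to ubiquinone, and its membrane arm pumps protons. The core subunits of the membrane arm, the pumps among them, are encoded by the mitochondrial genome and the other subunits by the nucleus. The enzyme is thus built from transcripts of both genomes, with the help of assembly factors that are not part of the finished complex. Neurons depend heavily on this enzyme, and inherited defects of its subunits in people often affect the brain.

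RNA was sequenced from mice labelled as Cntnap4 knockouts (KO, n = 3) and as wild type (WT, n = 3). Cntnap4 encodes a neuronal membrane protein of the neurexin superfamily. All 6 samples are labelled male and as brain tissue from the basolateral amygdala, a nucleus of the forebrain. The sources used here do not give the allele, the strain, the age or whether tissue of several mice was pooled, and p-values therefore measure the spread between these samples.

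Cntnap4 measured 1.61, 1.00 and 1.48 FPKM in KO replicates 1 to 3, against 2.03, 3.59 and 4.91 FPKM in WT replicates 1 to 3. The KO mean was 38.9% of the WT mean, with no overlap between the groups. The difference did not pass the adjusted threshold (log2 -1.05 ± 0.28 SE, limma adjusted p = 0.220), and an exact two-sided permutation test gave p = 0.1, the smallest that 3 against 3 samples allow.

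The libraries held 17647556 to 20813211 reads in genes. Each gene named Nduf had at least 57 reads in every library. KO replicate 1, labelled male, had a Xist level of 43.0 FPKM, where the others had 0.0346 FPKM or less, and 0 reads on Y-linked genes. Regional markers went against the label in most libraries. Slc17a7, the vesicular glutamate transporter of cortical projection neurons and of the labelled nucleus, was at 94.3 FPKM in KO replicate 2, at 21.4 and 19.1 FPKM in KO replicates 1 and 3 and at 5.37 to 6.42 FPKM in WT libraries. The summed markers of hypothalamic neurons, a cell type outside the labelled nucleus, were 2.66 FPKM in KO replicate 2, 1068 and 341 FPKM in KO replicates 1 and 3 and 486 to 954 FPKM in WT libraries. Main counts are therefore also given without each of these KO libraries. In such bulk samples, fewer cells of a type and less RNA per cell cannot be told apart.

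No gene named Nduf passed the adjusted threshold in either direction, and the differences measured were small. Genes of the NADH-binding module and of the proximal and distal membrane arms mostly had higher values in KO. The distal arm did so by little, and assembly factors lay around 0. Ndufa1, a small membrane-arm subunit, had the largest difference (log2 0.74 ± 0.17 SE). Ndufaf4, an assembly factor, had the most negative one (log2 -0.36 ± 0.10 SE). The lowest adjusted p among the 46 was 0.201 (limma, Benjamini-Hochberg over 16155 genes), and 0.0124% of all tested genes passed, 2 genes in number.

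At an unadjusted p under 0.05, 8 of the 46 genes (17.4%) were higher in KO and 2 (4.35%) were lower. Among all tested genes, 8.36% were higher and 6.85% lower by the same rule. The share of higher genes was above its background on the deposited scale with all libraries. With 2 lower genes, the lower share cannot be set apart from its background. Both counts changed with the libraries and the scaling used. The log2 difference was positive for 33 of the 46 genes (71.7%), against 51.5% of all tested genes. Its median over the 46 was 0.12, with quartiles of -0.0068 and 0.21, against a median of 0.0067 over all tested genes.

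The values of the groups did not overlap for 17 of the 46 genes (37.0%), 11 with KO higher and 6 with KO lower. Among all tested genes 22.6% had no overlap, 11.8% with KO higher and 10.8% with KO lower. The counts at an unadjusted p under 0.05 changed with single libraries. Without KO replicate 1 they were 5 higher and 3 lower, with a median log2 difference of 0.067, where 7.56% of all tested genes were higher and 6.33% lower. Without KO replicate 2 they were 13 higher and 1 lower, with a median of 0.16, where 7.28% of all tested genes were higher and 5.98% lower. Leaving out KO replicate 3, WT replicate 1 or WT replicate 3 gave 4, 3 and 5 genes higher, where 7.74%, 6.81% and 7.01% of all tested genes were higher. Without WT replicate 2, 12 of the 46 genes had such a p in either direction. In that setting 5.34% of all tested genes were higher and 4.07% lower.

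The direction of these counts also moved with the scaling of the libraries. With each library rescaled to an equal FPKM sum, 4 genes were higher and 3 lower, and 26 of 46 differences were positive. Among all tested genes, 4.09% were then higher and 8.17% lower, and 40.8% of differences were positive. With quantile normalization 2 were higher and 5 lower, where 6.76% of all tested genes were higher and 8.21% lower. With an equal FPKM sum over genes outside the mitochondrial genome 3 were higher and 6 lower, against 4.86% and 11.3% of all tested genes. The same settings moved all tested genes: higher genes made up 55% of those at an unadjusted p under 0.05 on the deposited scale, 33.3% with equal sums, 45.1% with quantile normalization and 30.1% with equal sums outside the mitochondrial genome. The median over the 46 genes stayed above 0 in each of these settings, at 0.061, 0.032 and 0.053. The median over all tested genes was -0.044, -0.0080 and -0.051 in the same order.

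**Figure D1:**
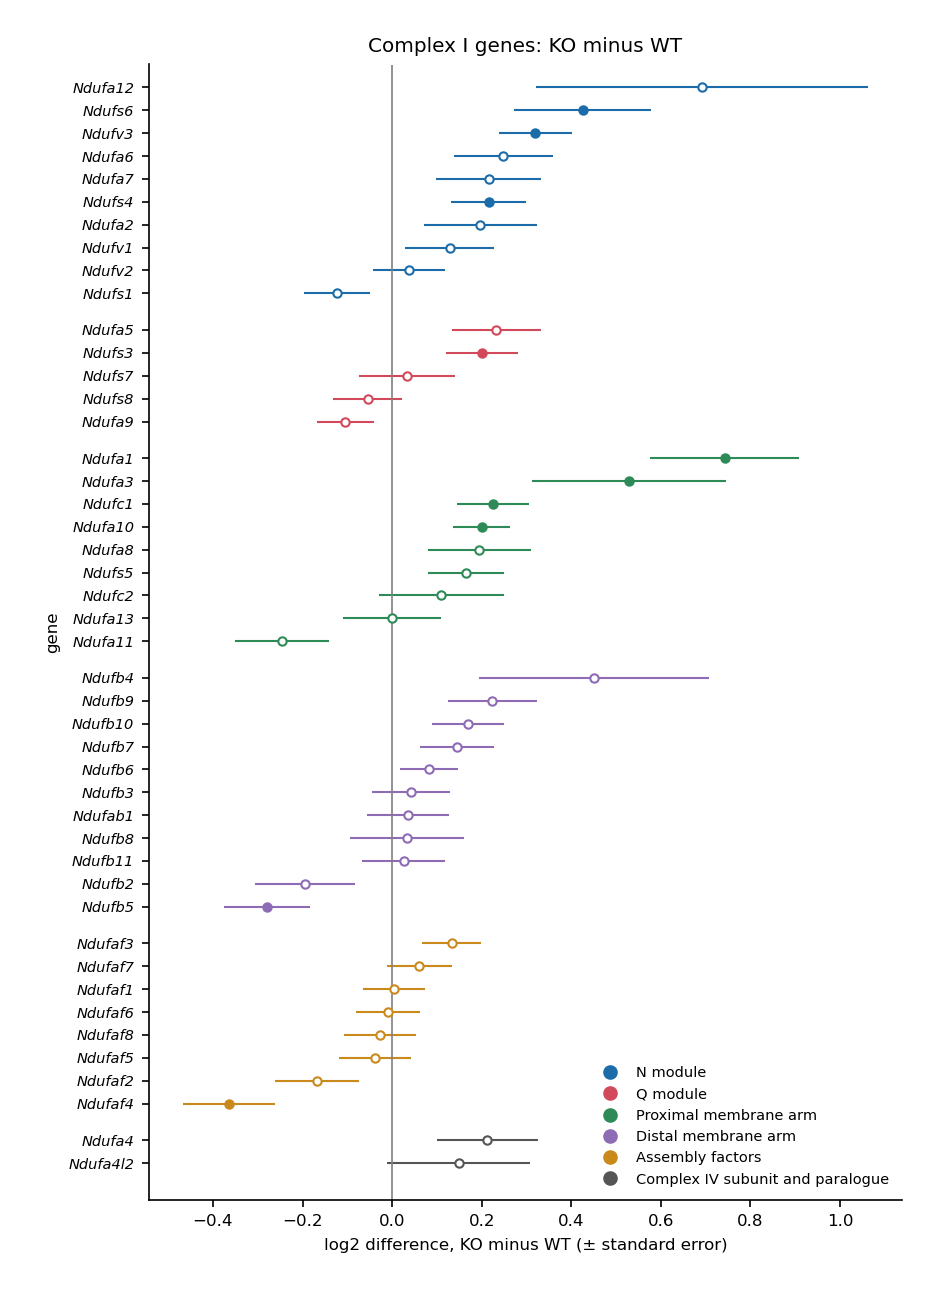
Log2 difference of FPKM, KO minus WT, for 45 of the 46 genes with its standard error (horizontal lines), ordered within each part of the complex; filled points have an unadjusted limma p under 0.05 and colours mark the part. Most points of the N module and the proximal and distal membrane arms lie right of 0, led by Ndufa1 at 0.74. The 8 assembly factors spread from -0.36 to 0.13.

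The plot of log2 differences orders the genes by their place in the enzyme. In the NADH-binding module, 3 of 10 genes (30%) were higher at an unadjusted p under 0.05 and 0 lower. The shares over all tested genes were 8.36% higher and 6.85% lower. Differences were positive for 9 of the 10 genes, and the median log2 difference was 0.22. This was the highest median of the 5 parts of the complex. None of the 10 passed the adjusted threshold.

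Ndufv3, an accessory subunit beside the flavin site, measured 25.9, 22.7 and 24.6 FPKM in KO, against 18.6, 20.8 and 19.0 FPKM in WT. The lowest KO library lay above the highest WT library. Its log2 difference was 0.32 ± 0.081 SE (limma adjusted p = 0.208). Ndufs4, an accessory subunit that stabilises this module and whose loss in mice causes an encephalopathy, measured 24.6, 23.2 and 24.1 FPKM in KO and 21.0, 22.2 and 18.7 FPKM in WT. Its groups did not overlap either, at a log2 difference of 0.22 ± 0.083 SE (limma adjusted p = 0.296). Ndufs6, a zinc-binding subunit added late in assembly, measured 63.2, 52.2 and 69.0 FPKM in KO and 45.9, 53.6 and 37.9 FPKM in WT. Here KO replicate 2 lay below WT replicate 2, so the groups overlapped, and the log2 difference was 0.43 ± 0.15 SE (limma adjusted p = 0.280).

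Ndufa12, an accessory subunit of the matrix arm (GRCm38 chromosome 10, plus strand, 94198720 to 94221443), had the second highest difference of the 46 but rested on its KO replicate 2. It measured 18.6, 48.6 and 27.01 FPKM in KO, from 549, 1380 and 751 reads, against 22.4, 20.3 and 12.3 FPKM in WT. KO replicate 2 was 2.13 times the mean of the other KO libraries, and KO replicate 1 lay below WT replicates 1 and 2. The log2 difference was 0.69 ± 0.37 SE (limma adjusted p = 0.425), 0.33 without KO replicate 2 and 0.44 without WT replicate 3.

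The 3 core subunits of the module had small differences. Ndufv1, which carries the flavin and binds NADH, measured 73.8, 64.0 and 64.4 FPKM in KO and 60.3, 56.7 and 67.9 FPKM in WT. Ndufv2, an iron-sulphur subunit next to it, measured 75.5, 66.7 and 74.9 FPKM in KO and 68.7, 73.6 and 69.2 FPKM in WT. The groups overlapped for both, with log2 differences of 0.13 ± 0.098 and 0.037 ± 0.080 (SE). Ndufs1, the subunit with most of the iron-sulphur clusters of the module and the longest gene of the 46 at 8086 bases, measured 19.1, 19.5 and 17.9 FPKM in KO and 20.1, 19.7 and 21.9 FPKM in WT. It was the member of the module with a negative difference, without overlap, at log2 -0.12 ± 0.074 SE (limma adjusted p = 0.467).

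Ndufa2, an accessory subunit with a thioredoxin-like fold, was among the most abundant of the 46, with 133, 106 and 141 FPKM in KO and 99.5, 114 and 116 FPKM in WT. Its groups overlapped, at a log2 difference of 0.20 ± 0.13 SE. Ndufa6 and Ndufa7, accessory subunits of the matrix arm, had log2 differences of 0.25 ± 0.11 and 0.22 ± 0.12 (SE), with overlapping groups.

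**Figure D2:**
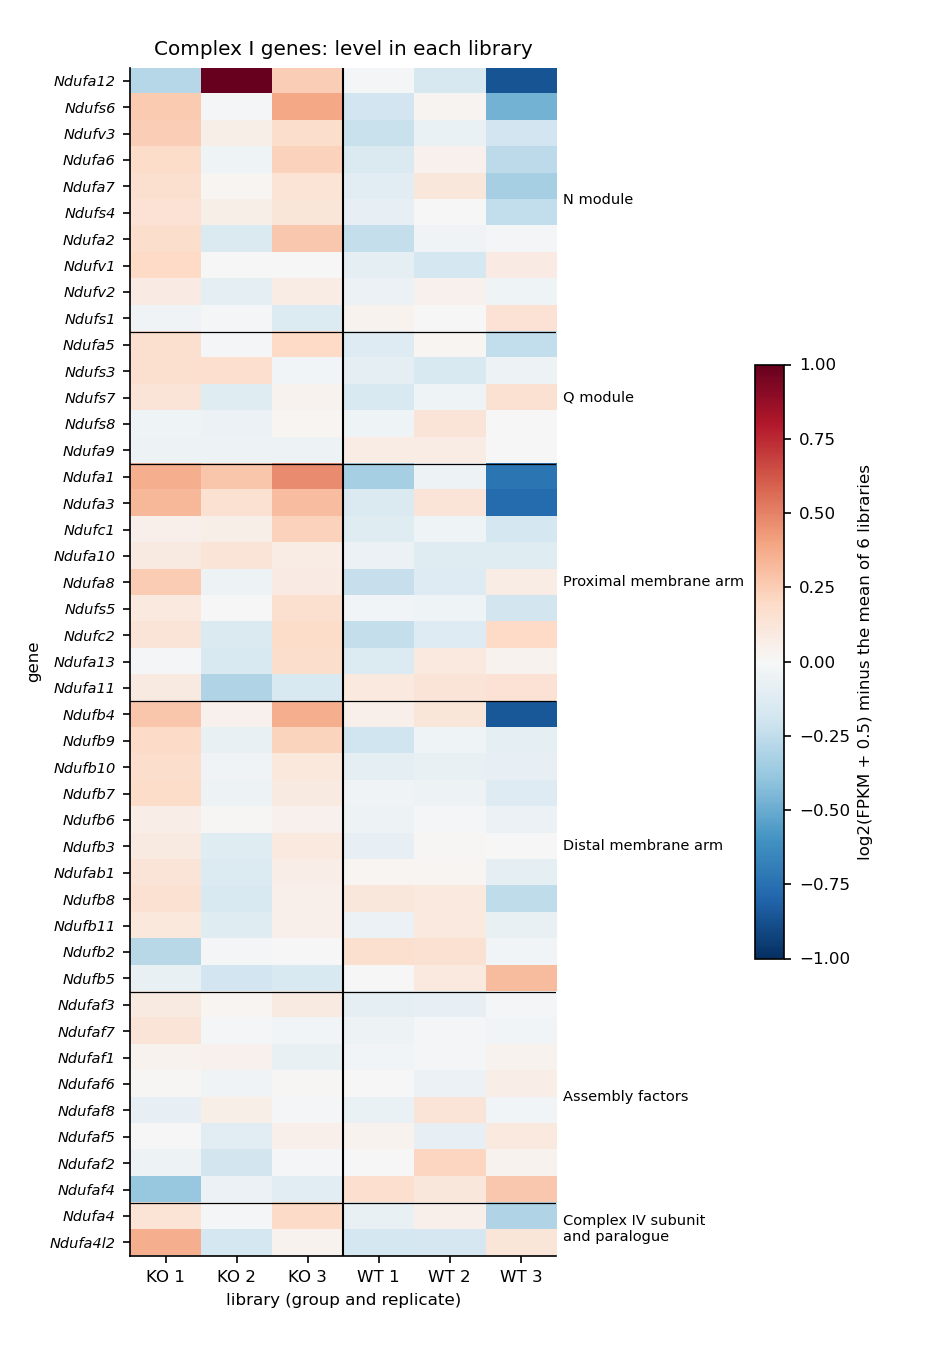
Log2(FPKM + 0.5) of 45 of the 46 genes in each library, as the deviation from the gene's mean over the 6 libraries; rows are grouped by part of the complex, KO libraries stand left of WT libraries and colours are capped at the ends of the scale. KO replicates 1 and 3 are above the mean for most genes, KO replicate 2 is not, and Ndufa12 in KO replicate 2 is a cell apart from its row.

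The quinone-binding module, which passes electrons to ubiquinone, had 3 positive and 3 negative differences, and its median was -0.0028 on the log2 scale. That median was -0.094 with quantile normalization, -0.069 with equal sums outside the mitochondrial genome and 0.075 without WT replicate 3. Ndufs3, a core subunit of this module, measured 45.9, 46.2 and 40.4 FPKM in KO, against 38.3, 36.9 and 39.7 FPKM in WT. The groups did not overlap, although KO replicate 3 and WT replicate 3 lay close together, and the log2 difference was 0.20 ± 0.080 SE (limma adjusted p = 0.307). It was the 1 gene of 6 (16.7%) in the module with an unadjusted p under 0.05, where 8.36% of all tested genes were higher.

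Core iron-sulphur subunits of the module had overlapping groups. Ndufs7, which carries the cluster that reduces quinone, measured 57.9, 48.4 and 54.1 FPKM in KO and 47.3, 51.1 and 58.6 FPKM in WT. Ndufs8, which carries further clusters, measured 76.1, 75.2 and 79.1 FPKM in KO and 75.9, 85.7 and 78.0 FPKM in WT. Their log2 differences were 0.032 ± 0.11 and -0.054 ± 0.077 (SE). Among the 7 core subunits encoded in the nucleus, 4 differences were positive and 3 negative, with a median of 0.032.

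Ndufa9, an accessory subunit near the quinone site that binds a nucleotide, was lower in every KO library, but by little. It measured 47.5, 47.5 and 47.7 FPKM in KO, against 52.0, 52.0 and 49.6 FPKM in WT, a log2 difference of -0.10 ± 0.064 SE (limma adjusted p = 0.476). Ndufa5, another accessory subunit, measured 101, 89.8 and 104 FPKM in KO and 82.8, 91.8 and 76.4 FPKM in WT. Its groups overlapped through KO replicate 2 and WT replicate 2, and the log2 difference was 0.23 ± 0.099 SE.

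In the proximal membrane arm, the part of the membrane domain next to the matrix arm, 7 of 9 differences were positive. At an unadjusted p under 0.05, 4 genes (44.4%) were higher and 0 lower, against 8.36% and 6.85% of all tested genes. The median log2 difference was 0.19, and 0.11 with quantile normalization. Ndufa1 (GRCm38 chromosome X, minus strand, 37187588 to 37191163), an X-linked subunit with a transmembrane helix, measured 137, 129 and 148 FPKM in KO. In WT it measured 84.3, 103 and 64.0 FPKM. The KO mean was 138 ± 9.54 FPKM and the WT mean 83.7 ± 19.3 FPKM (SD, n = 3 each), with every KO library above every WT library.

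The limma adjusted p of Ndufa1 was 0.201, the lowest of the 46. Over the alternative settings other than leaving out a library it went down to 0.0954. It was 0.375 with no filter, and under the replicate block the lowest limma adjusted p of the 46 was 0.417. Without KO replicate 1, the library with Xist, the log2 difference was 0.75. WT replicate 3 was at 68.5% of the mean of the other WT libraries, and without it the log2 difference was 0.56. Ndufb11, the other X-linked gene of the 46, measured 95.9 to 113 FPKM in KO and 99.0 to 112 FPKM in WT, with overlapping groups.

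Ndufa3, a small subunit of the same arm (GRCm38 chromosome 7, plus strand, 3617373 to 3620327), measured 96.4, 85.2 and 94.7 FPKM in KO and 69.0, 83.5 and 44.6 FPKM in WT. The groups did not overlap, but WT replicates 2 and 3 differed more from each other than WT replicate 2 from the KO libraries. The log2 difference was 0.53 ± 0.22 SE (limma adjusted p = 0.320) and 0.27 without WT replicate 3. Ndufa10, a nucleoside-kinase-like subunit on the matrix side, had the smallest standard error of the 8 higher genes. It measured 41.8, 43.0 and 41.4 FPKM in KO and 37.5, 36.02 and 36.1 FPKM in WT, a log2 difference of 0.20 ± 0.064 SE (limma adjusted p = 0.250).

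Ndufc1, a small membrane subunit, measured 30.1, 30.2 and 34.1 FPKM in KO and 26.7, 28.2 and 25.6 FPKM in WT. Its groups did not overlap, at a log2 difference of 0.23 ± 0.080 SE (limma adjusted p = 0.277). Ndufs5, which faces the intermembrane space, had 120.4, 112 and 126 FPKM in KO and 111, 109.8 and 99.3 FPKM in WT, also without overlap, with a log2 difference of 0.17 ± 0.084 SE. Ndufa8, a subunit of the same space, had overlapping groups, with 127, 102 and 112 FPKM in KO and 90.0, 96.7 and 111 FPKM in WT.

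Ndufa11, a membrane subunit at the hinge of the arm, went the other way. It measured 59.0, 44.9 and 49.9 FPKM in KO and 59.5, 60.7 and 61.4 FPKM in WT. KO replicate 1 came close to the WT libraries, but the groups did not overlap. Its log2 difference was -0.25 ± 0.11 SE (limma adjusted p = 0.333), and -0.16 without KO replicate 2. Ndufa13, a subunit first known as a cell-death factor, was level at 74.0, 67.3 and 84.6 FPKM in KO and 68.2, 80.3 and 77.0 FPKM in WT.

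In the distal membrane arm, the far end of the proton-pumping domain, 9 of 11 differences were positive but the median was 0.042 on the log2 scale. It was negative, at -0.016 and -0.024, under both equal-sum scalings. Leaving out a library gave 0.0090 without KO replicate 1, 0.015 without KO replicate 3, 0.079 without WT replicate 1, 0.090 without WT replicate 2 and 0.11 without KO replicate 2. At an unadjusted p under 0.05, 0 of the 11 were higher and 1 (9.09%) was lower, against 8.36% and 6.85% of all tested genes. The lower gene was Ndufb5, a membrane subunit, with 19.5, 17.9 and 18.4 FPKM in KO and 20.5, 22.1 and 25.7 FPKM in WT. The groups did not overlap, with a log2 difference of -0.28 ± 0.096 SE (limma adjusted p = 0.269).

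Ndufb4, a membrane subunit, had the largest positive difference of the distal arm and owed it to WT replicate 3. It measured 39.0, 33.0 and 41.4 FPKM in KO and 33.2, 35.0 and 17.7 FPKM in WT, so WT replicate 3 was at 51.8% of the mean of the other WT libraries. The log2 difference was 0.45 ± 0.26 SE (limma adjusted p = 0.449), and 0.14 without WT replicate 3. Ndufb10, which faces the intermembrane space, measured 109, 93.9 and 103 FPKM in KO and 90.1, 91.1 and 90.5 FPKM in WT. Its WT libraries were almost equal, all KO libraries lay above them, and the log2 difference was 0.17 ± 0.080 SE (limma adjusted p = 0.371).

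Ndufb6 did not overlap either, with 69.0, 66.7 and 68.2 FPKM in KO and 63.8, 65.2 and 63.3 FPKM in WT, but its log2 difference was 0.083 ± 0.065 SE and turned negative, to -0.017, with quantile normalization. Ndufab1, the mitochondrial acyl carrier protein, which also serves lipoic acid and fatty acid synthesis, measured 9.45, 7.76 and 9.03 FPKM in KO and 8.72, 8.75 and 8.03 FPKM in WT. Ndufb2 was the lowest subunit of the arm, with 2.88, 3.54 and 3.60 FPKM in KO and 4.08, 4.05 and 3.52 FPKM in WT. The groups overlapped for both, and the log2 difference of Ndufb2 was -0.19 ± 0.11 SE (limma adjusted p = 0.447).

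Another gene of the distal arm, Ndufb1-ps, is annotated in the table as a long noncoding RNA from a bidirectional promoter (GRCm38 chromosome 12, 101968090 to 101977068) and is therefore outside the 46. It had the largest difference of the tested genes named Nduf, with 36.1, 34.1 and 49.4 FPKM in KO and 21.6, 23.9 and 17.6 FPKM in WT. All KO libraries lay above all WT libraries, at a log2 difference of 0.90 ± 0.17 SE (limma adjusted p = 0.187). It was named after its values were seen. Of the 5 genes named Nduf without the protein-coding biotype, 4 were tested, and the other 3 tested ones were the processed pseudogenes Ndufab1-ps, Ndufb4c and Ndufs6b, with log2 differences of -0.054, -0.41 and 0.45 and overlapping groups.

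The assembly factors, which help build the complex and leave it, had 3 positive and 5 negative differences and a median of -0.018 on the log2 scale. That median went down to -0.081 under the scalings and was 0.011 without WT replicate 3. At an unadjusted p under 0.05, 0 of the 8 were higher and 1 (12.5%) was lower, against 8.36% and 6.85% of all tested genes. Ndufaf4 (GRCm38 chromosome 4, plus strand, 24898083 to 24905001) works with Ndufaf3 on the early quinone-binding module. It measured 7.24, 9.15 and 8.82 FPKM in KO, against 10.8, 10.4 and 11.6 FPKM in WT. Every KO library lay below every WT library, at a log2 difference of -0.36 ± 0.10 SE (limma adjusted p = 0.223), and -0.27 without KO replicate 1.

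Its partner Ndufaf3 had the opposite sign, with 20.8, 19.8 and 20.7 FPKM in KO and 18.2, 18.4 and 19.2 FPKM in WT. These groups did not overlap either, at a log2 difference of 0.13 ± 0.065 SE (limma adjusted p = 0.381). Ndufaf2, a late factor that is a paralogue of Ndufa12, measured 5.0, 4.53 and 5.16 FPKM in KO and 5.19, 6.14 and 5.36 FPKM in WT. All KO values were below all WT values, with KO replicate 3 close to WT replicate 1, at a log2 difference of -0.17 ± 0.094 SE, and -0.0999 without WT replicate 2.

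The remaining factors differed by less than their spread. Ndufaf1, a member of the complex that assembles the membrane arm, measured 14.6, 14.7 and 13.5 FPKM in KO and 13.9, 14.1 and 14.6 FPKM in WT. Ndufaf5, which hydroxylates Ndufs7, measured 18.6, 17.1 and 19.2 FPKM in KO and 19.0, 17.5 and 19.9 FPKM in WT. Its partner Ndufaf8 measured 17.7, 19.6 and 18.6 FPKM in KO and 17.9, 20.7 and 18.5 FPKM in WT. All of these overlapped, as did Ndufaf6 and Ndufaf7, a methyltransferase, with log2 differences from -0.039 to 0.060 over these 5 genes.

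Of 11 tested assembly factors that do not carry the Nduf prefix, 3 differences were positive and 8 negative, with a median of -0.055 on the log2 scale. Acad9, which works beside Ndufaf1, measured 3.27, 3.60 and 3.203 FPKM in KO and 3.996, 4.32 and 4.50 FPKM in WT. It was the 1 gene of the 11 (9.09%) with an unadjusted p under 0.05, where 6.85% of all tested genes were lower. Its groups did not overlap, at a log2 difference of -0.31 ± 0.089 SE (limma adjusted p = 0.229). Dmac1, a factor of the distal arm, had the next smallest p, with overlapping groups and a log2 difference of 0.19 ± 0.10 SE (limma adjusted p = 0.435).

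**Figure D3:**
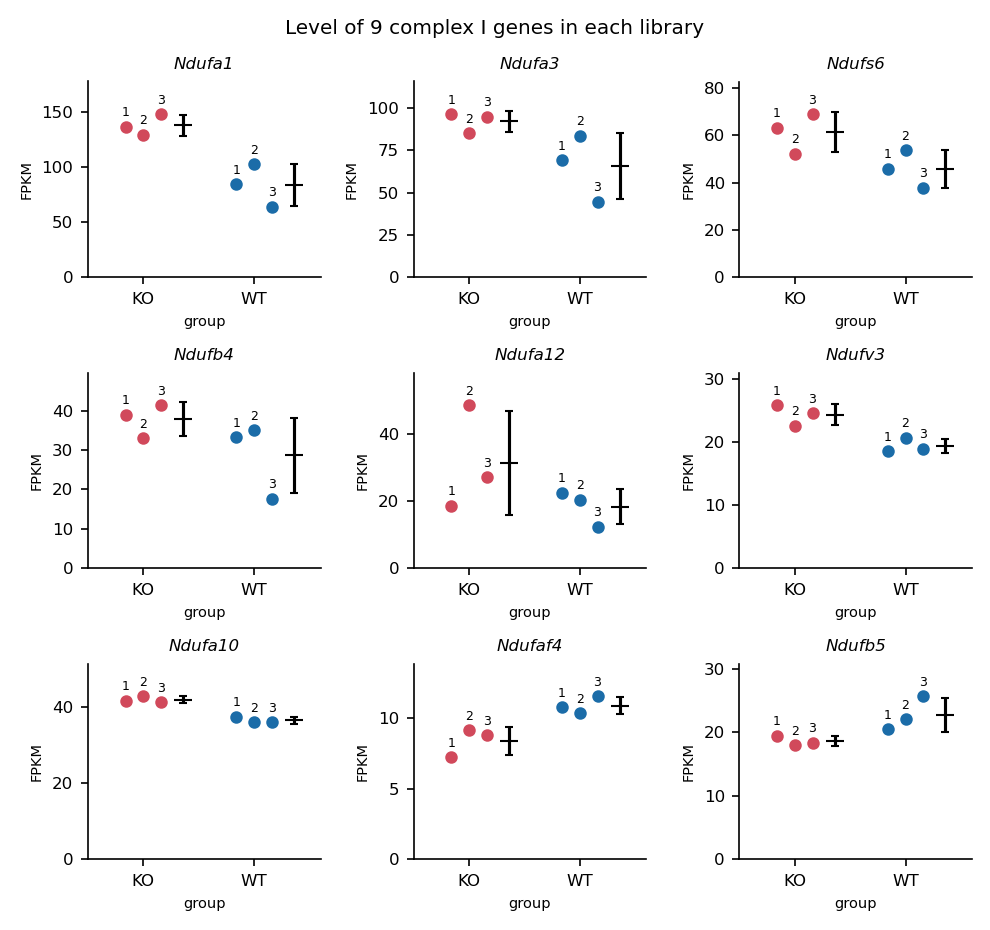
FPKM of 9 complex I genes by group, KO left of WT, on linear axes from 0; each numbered point is a library and the black marks beside the points are the mean ± SD of 3 libraries. All KO points of Ndufa1 lie above its WT points, Ndufa12 has a KO library at 48.6 FPKM apart from the rest, and the KO points of Ndufaf4 lie below its WT points.

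Per unit of length, the 46 genes spanned mean levels from 3.35 to 143 FPKM. Ndufa4 was the highest, with 156, 141 and 162 FPKM in KO and 135, 147 and 115 FPKM in WT, and its groups overlapped (log2 0.21 ± 0.11 SE, limma adjusted p = 0.413). Its paralogue Ndufa4l2, known in other cells as a gene induced by low oxygen, was the lowest, with 4.42, 2.88 and 3.40 FPKM in KO and 2.87, 2.89 and 3.66 FPKM in WT. The assembly factors had mean levels from 5.23 to 19.5 FPKM.

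Of the 7 complex I transcripts of the mitochondrial genome, 5 had positive and 2 negative differences, a share of 71.4% positive beside 71.7% of the 46 nuclear genes. All 7 mt-Nd genes had overlapping groups, none reached an unadjusted p under 0.05, and their median log2 difference was 0.027. mt-Nd1, a subunit beside the quinone channel, measured 7325, 6852 and 7495 FPKM in KO and 7935, 9418 and 3977 FPKM in WT. mt-Nd4, a proton-pumping subunit, measured 3119, 3082 and 2984 FPKM in KO and 3614, 4359 and 661 FPKM in WT. In every mt-Nd gene the KO libraries lay between WT replicate 2, the highest library, and WT replicate 3, the lowest.

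mt-Nd2 and mt-Nd5, pumping subunits too, had log2 differences of 0.26 ± 0.66 and 0.027 ± 0.49 (SE). Those of mt-Nd3, mt-Nd6 and mt-Nd4l were 0.011 ± 0.31, -0.053 ± 0.28 and -0.35 ± 0.58 (SE). Without WT replicate 3 all 7 differences were negative, from -1.05 for mt-Nd4l to -0.26 for mt-Nd1, and their median was -0.39. Reads on the mitochondrial genome made up 6.19%, 5.63% and 6.28% of reads in genes in KO and 6.90%, 8.14% and 3.42% in WT, so WT replicate 3 held the smallest share.

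**Figure D4:**
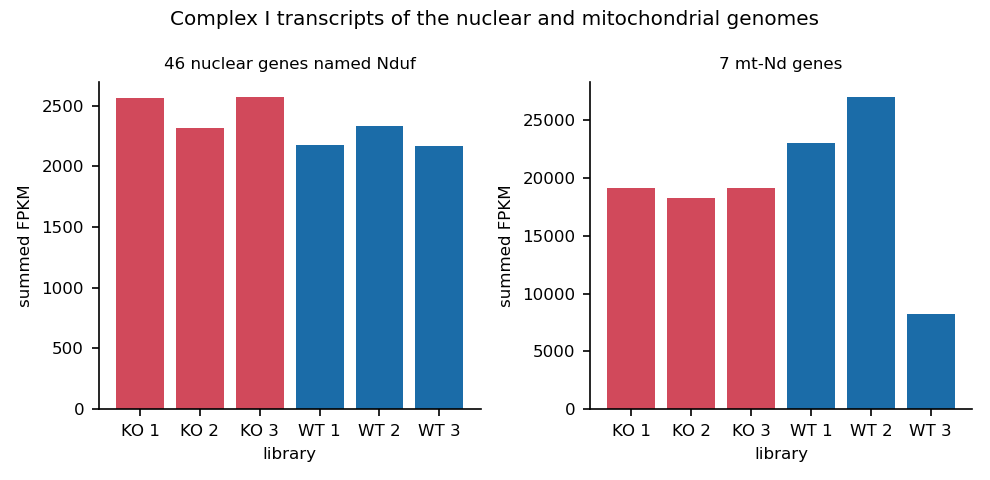
Summed FPKM per library of the 46 nuclear genes (left) and of the 7 mt-Nd genes (right), on separate linear axes from 0; red bars are KO and blue bars WT libraries. The nuclear sums span 2313 to 2571 in KO and 2168 to 2334 in WT, and in the mitochondrial sums WT replicate 3 stands at 8250, below all others.

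The summed level of the 46 nuclear genes was 2562, 2313 and 2571 FPKM in KO, against 2175, 2334 and 2168 FPKM in WT. KO replicate 2 lay just below WT replicate 2, so the groups overlapped. As a share of all reads in genes the 46 took 0.368%, 0.329% and 0.368% in KO and 0.329%, 0.348% and 0.343% in WT. KO replicates 1 and 3 were thus the high libraries on both scales and KO replicate 2 was not.

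The same order showed gene by gene. KO replicate 1 was the highest library for 16 of the 46 genes, KO replicate 3 for 12 and KO replicate 2 for 4, and in WT replicates 1 to 3 the counts were 2, 3 and 9. The lowest library was KO replicate 2 for 11 genes, and WT replicates 1 and 3 for 10 and 15. WT replicate 3 was thus at an extreme, high or low, for more genes than any other library.

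Markers of cell types differed between the groups beside these genes. The summed markers of excitatory projection neurons were 613 to 890.0 FPKM in KO and 356 to 418 FPKM in WT, those of medium spiny neurons 1115 to 1552 FPKM in KO and 776 to 1036 FPKM in WT, and those of oligodendrocytes 834 to 1261 FPKM in KO and 1381 to 1835 FPKM in WT. At an unadjusted p under 0.05, 6 of 8 excitatory neuron markers and 5 of 8 medium spiny neuron markers were higher in KO. By the same rule 6 of 8 oligodendrocyte markers were lower. Slc17a6 of the excitatory list had a negative difference (log2 -0.59 ± 0.34 SE), with overlapping groups. Among all tested genes, 8.36% were higher and 6.85% lower at an unadjusted p under 0.05. All 7 microglia markers had negative differences, with a median of -0.21 on the log2 scale, and 2 of them, Cx3cr1 and Tmem119, were lower at that level without overlap. The sums overlapped for astrocytes, at 340 to 377 FPKM in KO and 332 to 353 FPKM in WT, for microglia, at 214 to 279 FPKM in KO and 259 to 288 FPKM in WT, and for hypothalamic neurons, at 2.66 to 1068 FPKM in KO and 486 to 954 FPKM in WT. They also overlapped for interneurons, at 651 to 766 FPKM in KO and 606 to 726 FPKM in WT, and for endothelium, at 54.6 to 61.8 FPKM in KO and 53.5 to 78.7 FPKM in WT. Single interneuron markers ran in both directions, 3 of 7 positive and 4 negative. At an unadjusted p under 0.05, Vip (log2 0.51) and Sst (log2 0.31) were higher and Lhx6 (log2 -0.25) was lower. Vip and Lhx6 had no overlap between the groups, nor did Gad2, which was lower (log2 -0.20). No defining marker gene of the excitatory neuron or oligodendrocyte list was at 0 in any library, and of the tested hypothalamic markers Sim1 was at 0 in KO replicate 2. The part of these markers, of Xist in KO replicate 1 and of the mitochondrial share in the differences of the complex I genes was not tested.

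The difference between KO and WT was also related to gene length, which ran from 419 bases for Ndufa1 to 8086 bases for Ndufs1, with a median of 1635 bases. The 46 are short beside the tested protein-coding genes, whose median was 4413 bases. Across the 46 genes, shorter ones had the more positive log2 differences, with a Spearman rho of -0.31, against -0.11 across 13376 tested protein-coding genes. These are descriptions across genes of the same libraries, which share depth and scaling and are not independent.

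Among the 37 genes of up to 3000 bases, 28 differences were positive and 9 negative, with 7 higher and 0 lower at an unadjusted p under 0.05 and a median log2 difference of 0.15. Of the 3835 other tested protein-coding genes of that length, 57.2% were positive, with a median of 0.036. At the same p, 433 of these were higher and 211 lower. Among the 9 longer ones, 5 were positive and 4 negative, with 1 higher, 2 lower and a median of 0.033. The 9495 other tested protein-coding genes over 3000 bases were positive in 50.1%, with a median of 0.00052, and 701 were higher and 665 lower.

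Both genes named Nduf that were lower at an unadjusted p under 0.05 are thus among the 9 long ones, Ndufaf4 at 3902 and Ndufb5 at 4995 bases. Within the shorter group the relation with length nearly vanished, with a rho of -0.089 over 37 genes, and without Ndufa1 the rho over the other 45 was -0.26. After the trend of all tested protein-coding genes with length was subtracted, the median over the 46 was 0.080 on the log2 scale, against 0.12 before. By library, the rho of each gene's deviation with length was -0.25, -0.035 and -0.44 in KO and 0.53, 0.095 and 0.13 in WT. Over the tested protein-coding genes it was -0.31, 0.15 and -0.13 in KO and 0.26, 0.0076 and -0.044 in WT.

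**Figure D5:**
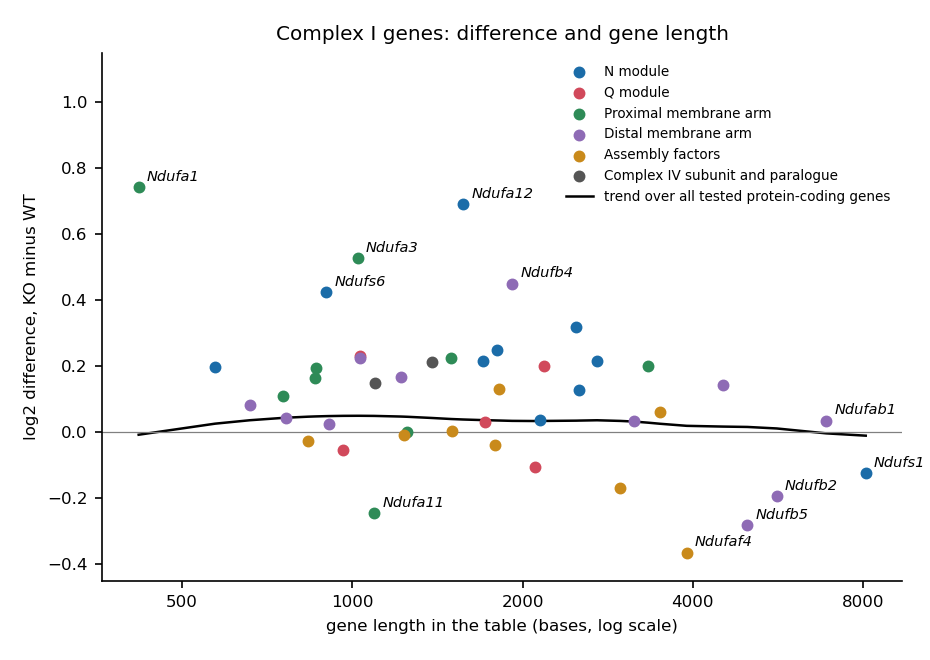
Log2 difference of FPKM, KO minus WT, against gene length in bases on a log axis; coloured points are 45 of the 46 genes, and the line is the trend over the 13376 tested protein-coding genes. The shortest gene, Ndufa1, is at the top left, and the longer genes Ndufaf4 and Ndufb5 lie below 0.

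Beyond complex I, the nuclear subunits of the other respiratory complexes did not share a direction. All 4 subunits of complex II, succinate dehydrogenase, had negative differences, none at an unadjusted p under 0.05, with a median of -0.060 on the log2 scale and overlapping groups. Of 9 tested complex III subunits 2 (22.2%) were higher and 0 lower at that level, against 8.36% and 6.85% of all tested genes. Their median was 0.0094, which ran from -0.066 to 0.058 over the alternative settings. Uqcrb measured 80.1, 75.1 and 91.7 FPKM in KO and 70.5, 68.9 and 63.9 FPKM in WT, and Uqcr11 149, 141 and 177 FPKM in KO and 111, 136 and 71.7 FPKM in WT, both without overlap.

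Of 15 tested subunits of cytochrome c oxidase, complex IV, 3 (20%) were higher and 1 (6.67%) lower, against 8.36% and 6.85% of all tested genes. Their median was 0.18. That median was 0.059 with quantile normalization and 0.11 without WT replicate 3. Cox7c, a ubiquitous small subunit, measured 192, 175 and 215 FPKM in KO and 134, 152 and 139 FPKM in WT (log2 0.45 ± 0.10 SE, limma adjusted p = 0.201), and Cox6a2, the isoform typical of muscle, 7.51, 6.82 and 8.30 FPKM in KO and 4.07, 5.15 and 5.01 FPKM in WT (log2 0.62 ± 0.11 SE, limma adjusted p = 0.187). Of 17 tested ATP synthase genes 2 (11.8%) were higher and 1 (5.88%) lower, close to the shares of all tested genes. Their median was 0.0034, which ran from -0.084 to 0.015 over the alternative settings and was 0.065 without WT replicate 3. Atp5k, a small membrane subunit, measured 88.8, 79.0 and 112 FPKM in KO and 48.6, 57.7 and 37.2 FPKM in WT (log2 0.97 ± 0.19 SE, limma adjusted p = 0.187). Atp5s, a coupling factor, was lower, with 9.65, 8.35 and 9.83 FPKM in KO and 11.03, 11.97 and 11.06 FPKM in WT (log2 -0.28 ± 0.086 SE, limma adjusted p = 0.241). As with the complex I genes, no gene of these lists passed the adjusted threshold.

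Reads of neighbouring genes could not be separated with certainty. By the deposited coordinates, 22 of the 46 genes overlap another gene and 17 overlap a gene with at least 0.5 FPKM. For 2 of these the neighbour lies on the same strand, Yjefn3 for Ndufa13 and the pseudogene Gm16053 for Ndufc2. The sources used here do not say whether counting used strand, so values of overlapping genes, and of genes with processed copies such as Ndufab1, Ndufb4 and Ndufs6, are less certain.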

How the data were processed

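The authors deposited a table of FPKM values per gene, with 1 column per sample, and the table's gene lengths, coordinates, symbols and biotypes. Per the labels' protocols, total RNA went through column purification and a SMARTER mRNA library kit. Per the submitters' processing notes, the build was GRCm38 (mm10). The sources used here do not give the aligner, the counter, the annotation release or the strand setting. Reads were recovered as FPKM times gene length, divided by the smallest nonzero product of each library, which was taken as a single read. This gave whole numbers for 100% of nonzero values within 0.01, and these reads were used for depth and for voom. Scaling by median-ratio size factors left 33 of the 46 differences positive. It also left the shares of all tested genes at 8.36% higher and 6.85% lower, as on the deposited scale. All columns were matched to samples by name, and 0 were left unmatched.

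The 46 genes were compared, KO minus WT, with limma-trend and robust empirical Bayes (limma 3.58.1, R 4.3.3) on log2(FPKM + 0.5), fitted over the 16155 genes that averaged 0.5 FPKM or more. Adjustment followed Benjamini and Hochberg over all of them, at a threshold of 0.05. Differences are on the log2(FPKM + 0.5) scale, which shrinks those of weakly expressed genes, and SE marks the standard error. The length trend was a loess curve with span 0.5 on log2 gene length. The test was checked on simulated data.

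The genes and lists were chosen with earlier results of these data known. The rule for named genes took the 6 smallest p in each direction, the largest and smallest differences, the 5 highest levels, the 3 shortest and 3 longest genes, the core subunits, assembly factors and mt-Nd genes, and the 2 smallest p of each related list. Other genes named, among them Ndufb4, Ndufb1-ps, Ndufa5, Ndufa6, Ndufa7, Ndufa9, Ndufa13, Ndufb10 and Ndufb11, were chosen after their values were seen. The values of 1 of the 46 genes are not reported here, though it is in the counts and medians. Alternatives covered pseudocounts, filters, scaling, moderation, weights, voom, length and leaving out each library.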

Additional observations from a re-analysis of the deposited data

How the results depend on the processing

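None of the 46 complex I genes passed the adjusted threshold under the 16 settings other than leaving out a library or the 6 that leave out a library. Genes with an absolute log2 difference above 0.1 kept their sign in all of these, Ndufb2 and Ndufa4l2 being untested at a minimum of 5 FPKM. Of all tested genes, 2 passed on the deposited scale, 5 with an equal FPKM sum, 1 with quantile normalization, 1 with the length trend removed, and 0 with a pseudocount of 0.1, no filter, a minimum of 5 FPKM, an equal sum outside the mitochondrial genome, no robust step, the replicate block, protein-coding genes or voom. Leaving out a library gave 0 to 9. The 8 complex I genes higher at an unadjusted p under 0.05 became 4 with equal sums, 3 with equal sums outside the mitochondrial genome, 2 with quantile normalization, 5 without the trend, 15 with array weights, 4 with voom and 2 with the replicate block, and 3 to 13 without a library. The 2 lower ones became 6 with equal sums outside the mitochondrial genome and 5 with quantile normalization, and 1 to 3 without a library. Higher genes made up 7.56% of all tested genes without the trend, 9.63% with array weights, 6.2% with voom and 5.66% with the replicate block. The 17 genes without overlap became 11 with quantile normalization, and 17 to 30 without a library, where fewer libraries make overlap rarer by construction. The median log2 difference of 0.12 became 0.0530 with equal sums outside the mitochondrial genome and 0.0325 with quantile normalization, and 0.0666 to 0.16 without a library. The median after the length trend, 0.0796, became 0.0575 at a minimum of 5 FPKM, 0.0257 with quantile normalization and 0.10 with array weights, and 0.0533 to 0.10 without a library. The correlation with length stayed between -0.42 and -0.27, and between -0.39 and -0.23 without a library. The difference of Cntnap4, untested at a minimum of 5 FPKM, stayed negative and unpassed.

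Differences near 0 and of mt-Nd genes changed sign. Of the 46 genes, 7 did so with equal sums, 8 with equal sums outside the mitochondrial genome, 7 with quantile normalization, 4 with array weights, 7 with voom, 2 with the length trend removed and 0 to 7 without a library. The genes given next are only those that the rule for named genes took. With equal sums they were Ndufab1 (-0.0192), Ndufv2 (-0.0207), Ndufs7 (-0.0252), Ndufaf1 (-0.0523), mt-Nd3 (-0.0464) and mt-Nd5 (-0.0310). With equal sums outside the mitochondrial genome they were Ndufab1 (-0.0274), Ndufv2 (-0.0293), Ndufs7 (-0.0337), Ndufaf1 (-0.0605), Ndufaf7 (-0.00384), mt-Nd3 (-0.0551) and mt-Nd5 (-0.0396). Under quantile normalization they were Ndufb6 (-0.0174), Ndufv2 (-0.0601), Ndufs7 (-0.0597), Ndufaf1 (-0.0389), mt-Nd1 (-0.0658) and mt-Nd3 (-0.14). Under array weights they were Ndufaf5 (0.0103), Ndufaf1 (-0.0157), Ndufaf6 (0.0125), mt-Nd1 (-0.0263), mt-Nd2 (-0.10), mt-Nd3 (-0.20) and mt-Nd5 (-0.24). With voom they were Ndufab1 (-0.00687), Ndufv2 (-0.00745), Ndufs7 (-0.0120), Ndufaf1 (-0.0418), mt-Nd3 (-0.0314) and mt-Nd5 (-0.0250). With the length trend removed they were Ndufaf1 (-0.0173) and mt-Nd3 (-0.0263). Without a library the ranges were -0.0193 to 0.11 for Ndufab1, -0.0178 to 0.0429 for Ndufaf1, -0.0881 to 0.00720 for Ndufaf5, -0.0391 to 0.0202 for Ndufaf6, -0.0672 to 0.0324 for Ndufaf8 and -0.0371 to 0.12 for Ndufs7. In the mitochondrial genes they were -0.26 to 0.36 for mt-Nd1, -0.58 to 0.74 for mt-Nd2, -0.36 to 0.25 for mt-Nd3, -0.37 to 0.99 for mt-Nd4, -1.05 to 0.0881 for mt-Nd4l, -0.59 to 0.37 for mt-Nd5 and -0.39 to 0.18 for mt-Nd6. The cause of these changes was not tested.

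With 3 libraries a group the spread between libraries, at 57 or more reads for each of these genes, limits the test. Replicate numbers were not treated as pairs in the main test. The deviations of same-numbered libraries correlated at -0.090, -0.14 and -0.066, and those of differently numbered ones at -0.042 to 0.12. Such values from so few libraries cannot show whether the samples were paired. Under the replicate block 4 of the 46 genes had an unadjusted p under 0.05, where 5.66% of all tested genes were higher and 4.64% lower.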

Other observations

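Genes of the ribosomes, whose proteins are small like many complex I subunits, were listed beside them. Of 77 tested cytosolic ribosomal protein genes, 8 (10.4%) were higher and 1 (1.3%) lower in KO at an unadjusted p under 0.05, against 8.36% and 6.85% of all tested genes. Positive differences numbered 59 and negative ones 18. The median log2 difference was 0.11, beside 0.12 for the complex I genes, and went down to 0.032 over the alternative settings. It was 0.037 without KO replicate 1, 0.068 without WT replicate 3, 0.18 without WT replicate 2 and 0.21 without KO replicate 2. The smallest p belonged to Rps29, a protein of the small subunit, with 349, 265 and 468 FPKM in KO and 139, 202 and 87.8 FPKM in WT (log2 1.37 ± 0.33 SE, limma adjusted p = 0.205). Rps28, also of the small subunit, measured 70.0, 55.1 and 81.1 FPKM in KO and 35.4, 47.1 and 25.3 FPKM in WT (log2 0.95 ± 0.24 SE, limma adjusted p = 0.210). Neither had overlapping groups, and many ribosomal protein genes have processed copies that could share reads.

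Among 77 tested mitochondrial ribosomal protein genes, needed to translate the mt-Nd transcripts, 2 (2.6%) were higher and 2 (2.6%) lower at that level. Both shares lay below those of all tested genes, 8.36% and 6.85%. The median over the 77 was 0.050, which ran from -0.016 to 0.058 over the alternative settings. Mrpl16 measured 26.1, 26.4 and 25.2 FPKM in KO and 21.9, 20.2 and 20.5 FPKM in WT, and Mrpl35 measured 6.27, 6.82 and 6.71 FPKM in KO and 7.99, 8.16 and 8.38 FPKM in WT, so the 2 genes with the smallest p ran in opposite directions. Of 12 regulators of mitochondrial genes, such as the coactivator Ppargc1a and the transcription factor Tfam, 0 were higher and 0 lower at an unadjusted p under 0.05 by limma, and the median log2 difference was -0.057. The smallest adjusted p among them, for the mitochondrial transcription factor Tfb2m, was 0.392 (limma, log2 0.16 ± 0.079 SE), and Esrra followed at 0.421.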
